A study of Homo sapiens with 6 samples.

Results

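CXCR4, its ligand CXCL12, the second CXCL12 receptor ACKR3, the cytokine MIF and the MIF receptor CD74 were followed across a pair of cybrid lines. A cybrid is made by fusing a cell that has lost its mitochondrial DNA with a donor of mitochondria whose nucleus is removed or inactivated. The members were chosen by gene symbol: every probe set that the platform table assigns to 1 of these 5 symbols was taken, which gave 12 of 41091 probe sets with 1 symbol, and 5 of 19775 genes. CXCR4 was known from these same arrays to be among the genes with the largest difference, so the contrast that chose the group is given for its members as a description, without a test.

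The 10A/143B cybrids carry mitochondria of MCF10A, a non-cancerous breast epithelial line. The 468/143B cybrids carry mitochondria of MDA-MB-468, a metastatic breast cancer line. Both share the nuclear background of the osteosarcoma line 143B, thymidine kinase negative and depleted of mitochondrial DNA, and both passed selection in bromodeoxyuridine without uridine after actinomycin-D treatment of the donor and fusion in polyethylene glycol. Each was measured on 3 Affymetrix arrays. How many fused clones each cybrid came from is not given in the sources used here, so a difference between the lines cannot be told apart from a difference between clones. By its title, the study asked whether healthy mitochondria lower cancer-driving pathways.

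CXCR4 is a G protein-coupled receptor that binds CXCL12, couples to inhibitory G proteins and guides migrating cells toward the ligand. In osteosarcoma and breast cancer it is known for its part in the spread of tumour cells to CXCL12-rich organs such as lung and bone. ACKR3, formerly CXCR7, binds the same ligand but works mainly through arrestins and takes CXCL12 up from the surroundings. MIF is a secreted cytokine that binds CD74 and can also engage CXCR4 and CXCR2. CD74, the invariant chain of MHC class II, doubles as the surface receptor of MIF.

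CXCR4 lies on chromosome 2 from 136114349 to 136118149 (GRCh38.p14, reverse strand) and ACKR3 on the same chromosome from 236537122 to 236582354. CXCL12 lies on chromosome 10 (44370165 to 44385097), MIF on chromosome 22 (23894383 to 23895223) and CD74 on chromosome 5 (150401639 to 150412910). The array files name no genome build, so these positions serve only to locate the genes. The RefSeq promoter table holds 4 of the 5 genes, and CXCR4 has 3 entries in it. The promoters of CXCR4 and MIF are shown because both genes are known targets of hypoxia-inducible factor (HIF), and because NRF1 is known to drive the CXCR4 promoter. Each runs from 250 bases before to 50 bases after a transcript start, 5′ to 3′ on the gene's own strand, at chr2:136118100-136118399 (reverse strand) for CXCR4 and chr22:23894133-23894432 (forward strand) for MIF, in GRCh38.p14. Capitals mark the letters GCGCATG, the core of the NRF1 motif, the HIF core motifs ACGTG and GCGTG, the TATA motif TATAAA and the CCAAT motif, each searched on both strands.
CXCR4: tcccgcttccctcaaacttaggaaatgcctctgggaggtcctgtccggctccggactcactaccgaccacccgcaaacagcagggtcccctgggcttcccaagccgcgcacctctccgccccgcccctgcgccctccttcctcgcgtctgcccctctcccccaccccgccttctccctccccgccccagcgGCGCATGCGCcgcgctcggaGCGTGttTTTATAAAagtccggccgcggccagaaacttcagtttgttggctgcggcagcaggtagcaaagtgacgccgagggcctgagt
MIF: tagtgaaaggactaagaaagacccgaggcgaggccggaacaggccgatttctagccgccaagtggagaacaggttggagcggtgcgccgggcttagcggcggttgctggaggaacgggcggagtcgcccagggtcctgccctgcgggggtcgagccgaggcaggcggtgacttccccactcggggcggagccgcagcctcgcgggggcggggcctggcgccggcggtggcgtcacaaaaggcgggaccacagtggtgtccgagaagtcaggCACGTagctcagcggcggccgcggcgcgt
The CXCR4 window held the NRF1 core on both strands, overlapping, from position -59 relative to the transcript start, then GCGTG at -39 and TATAAA at -30, which overlaps a copy of the same motif on the other strand. The MIF window held ACGTG on the opposite strand at position 21, within the transcribed part. Of all 35116 promoter windows, 4.43% held the NRF1 core, 48.4% held at least 1 of the HIF core motifs and 11.5% held the TATA motif. The window shown is the one farthest upstream. The other 2 CXCR4 windows held neither the NRF1 core nor the TATA motif; 1 held CCAAT on the opposite strand and the other GCGTG. A match describes letters in a window and not a bound site.

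Before the results, 2 features of the arrays need stating. The median intensity lay at 21.7 to 24.4 on arrays of 10A/143B, against 20.4 to 21.4 on those of 468/143B. Replicates 2 and 3 lay close together in both lines, with SDs of their difference of 0.0747 (10A/143B) and 0.0892 (468/143B) among genes with a mean log2 level above 8, whereas differences from replicate 1 had SDs of 0.229 to 0.273. Nothing in the labels says whether the extractions came from separate cultures, so each p-value reflects array-to-array spread alone, possibly a technical one.

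Of 10 measured epithelial markers, 0 were higher and 3 lower in 10A/143B (limma, adjusted p under 0.05, 30% called, against 35.6% of all genes). Their summed intensity spanned 6619 to 6970 on the 10A/143B arrays, against 7376 to 8289 on the 468/143B arrays. Most of it came from KRT18, with means of 4908 in 10A/143B and 6198 in 468/143B. The lower ones were keratins of simple epithelium, KRT8 (-1.05 ± 0.13, SE, adjusted p = 2.74e-04), KRT18 (-0.34 ± 0.06, SE, adjusted p = 0.0022, but 0.0503 when replicates 2 and 3 are averaged) and KRT19 (-0.67 ± 0.16, SE, adjusted p = 0.0107, but 0.0584 averaged and 0.0559 without 10A/143B replicate 3). In that averaged fit 1 marker was lower. A level filter kept genes whose mean in at least 1 line reached a log2 level of 5.25, the overall median of the arrays, and so can keep a gene through its higher line alone. It kept 4 of these markers, of which 2 were higher and 2 lower. KRT5, a keratin of basal epithelium, stood at the lowest value, 1, on every array of 10A/143B, and at 2.07, 1 and 1 in 468/143B. EPCAM, an epithelial adhesion gene, had mean intensities of 55.3 in 10A/143B and 36.8 in 468/143B (adjusted p = 0.0803). The cadherin CDH1 had means of 7.92 in 10A/143B and 14.9 in 468/143B (adjusted p = 0.227). VIM, the mesenchymal filament, had means of 8687 in 10A/143B and 8418 in 468/143B. Of 9 osteosarcoma and mesenchyme markers, 0 were higher and 4 lower in 10A/143B (44.4% called). Their summed intensities were 11525 to 12197 in 10A/143B and 13120 to 14451 in 468/143B, most of it from VIM. The lower ones were the matrix genes FN1 (-2.32 ± 0.07, SE, adjusted p = 2.04e-06) and SPARC (-0.66 ± 0.06, SE, adjusted p = 4.96e-05), TWIST1 and RUNX2, the last with adjusted p = 0.0271 but 0.057 to 0.122 without any 1 array other than 10A/143B replicate 1. Of 12 markers of blood and endothelium, cells that normally carry much CXCR4 and CD74, 1 was higher and 2 lower (25% called), but 0 and 0 without 10A/143B replicate 2 or without 468/143B replicate 3. Their summed intensity spanned 246 to 285 on the 10A/143B arrays, against 251 to 298 on the 468/143B arrays. A large part of it came from the higher gene, PECAM1, with means of 155 in 10A/143B and 112 in 468/143B. On the other PECAM1 probe sets no mean was above 7.72. The lower genes were CD34 and MS4A1. The leukocyte gene PTPRC had means of 12.4 in 10A/143B and 12.6 in 468/143B.

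CXCR4 was the member that separated the lines most. Its brightest probe set, 217028_at, had intensities of 19.6, 28.8 and 37.0 in 10A/143B replicates 1, 2 and 3, against 347, 335 and 370 in 468/143B replicates 1, 2 and 3. The lines did not overlap, and the highest 10A/143B array stood far under the lowest 468/143B array. Mean intensity was 28.5 ± 8.73 in 10A/143B and 351 ± 17.4 in 468/143B (SD, n = 3 each). The 10A/143B values lie near that line's array medians of 21.7 to 24.4, so they are not shown to be above background and the size of the fold is uncertain. On the log2(intensity + 16) scale, which understates changes of dim genes, the levels were 5.46 ± 0.29 in 10A/143B and 8.52 ± 0.07 in 468/143B, a difference of -3.06 with a standard error (SE) of 0.17. Of all 19775 genes, 0.0253% had a difference of this size or larger. In these bulk samples fewer cells with CXCR4 RNA and less CXCR4 RNA per cell cannot be told apart.

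The other CXCR4 probe sets gave the same direction with smaller differences. Probe set 209201_x_at, whose suffix marks possible cross-hybridisation, had intensities of 19.2, 13.6 and 11.7 in 10A/143B replicates 1, 2 and 3, against 158, 130 and 97.7 in those of 468/143B. Its difference was -2.21 ± 0.21 on the log2 scale (SE). Probe set 211919_s_at, whose probes match more than 1 transcript, had 34.5, 43.1 and 44.6 in 10A/143B, against 184, 119 and 113 in 468/143B. Its difference was -1.42 ± 0.20 (SE). No array of 10A/143B reached the lowest array of 468/143B on any of the 3 probe sets. The 3 probe sets did not order the 10A/143B arrays alike: replicate 1 was lowest on 217028_at and 211919_s_at, but highest on 209201_x_at. Among the 468/143B arrays, replicate 1 was highest on 211919_s_at and 209201_x_at. The size of the CXCR4 difference therefore depends on the probe set, from 2.67-fold to 8.35-fold on the offset scale, and its direction does not. Taken by replicate number, the difference of 217028_at was -3.35 between the arrays numbered 1, -2.97 between those numbered 2 and -2.86 between those numbered 3.

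**Figure D1:**
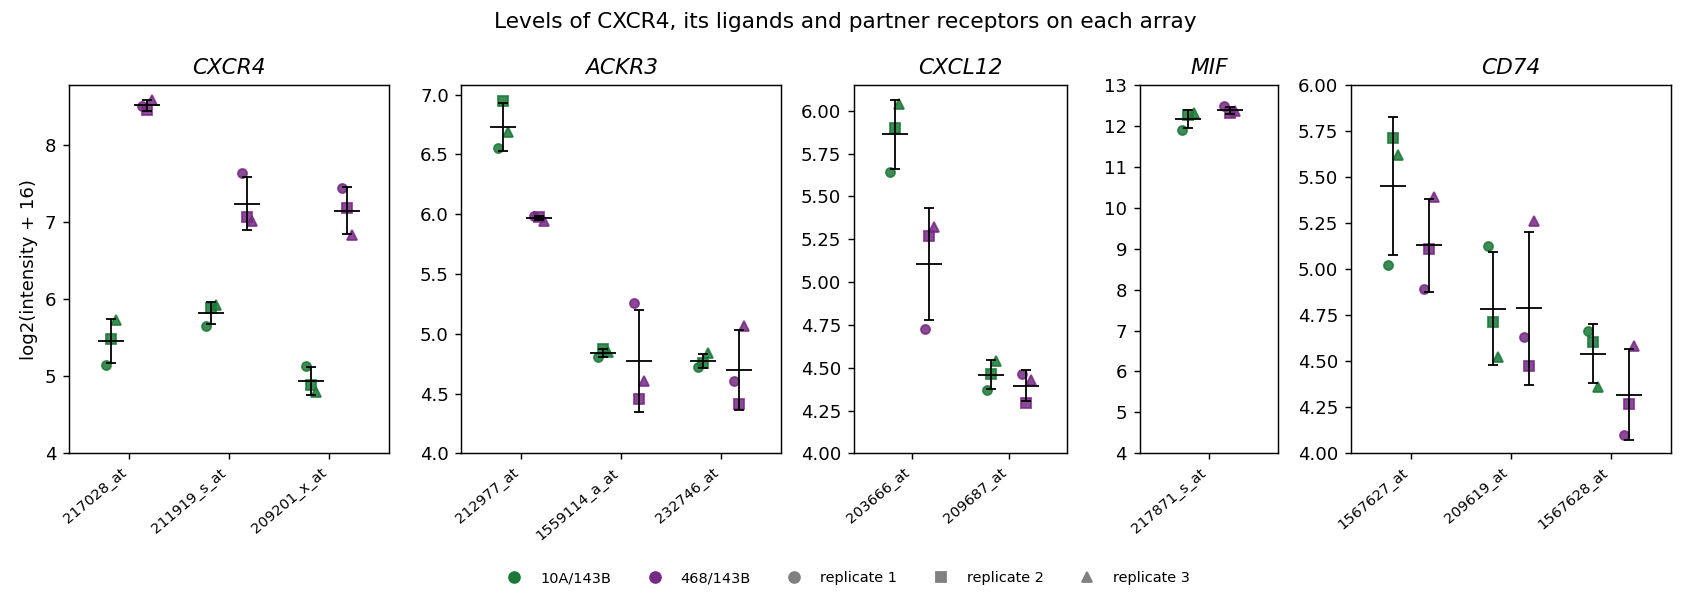
Level of each probe set as log2(intensity + 16), with a panel per gene, probe sets along the horizontal axis and a separate vertical scale in each panel. Points are arrays (green 10A/143B, purple 468/143B, shape by replicate) and bars are mean ± SD of 3 arrays. The CXCR4 probe sets separate the lines, with 217028_at at 5.46 in 10A/143B and 8.52 in 468/143B, while MIF lies between 11 and 13 on every array.

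CXCL12, the ligand of CXCR4 and ACKR3, was dim on the array and somewhat brighter in 10A/143B. Probe set 203666_at had intensities of 34.1, 43.7 and 49.9 in 10A/143B replicates 1, 2 and 3, against 10.5, 22.6 and 23.9 in 468/143B. These arrays did not overlap, and replicate 1 was the lowest in each line. The log2 level was 5.86 ± 0.20 in 10A/143B and 5.11 ± 0.33 in 468/143B (SD, n = 3 each), a difference of 0.76 ± 0.23 (SE). The other probe set, 209687_at, had 4.69, 6.06 and 7.26 in 10A/143B, against 6.06, 3.58 and 5.54 in 468/143B. There the lines overlapped, every array was under the offset of 16, and the difference was 0.06 ± 0.12 (SE). The ligand's higher level in 10A/143B thus rests on 1 of its 2 probe sets.

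MIF, the ligand of CD74, was bright in both lines. Its only probe set, 217871_s_at, had intensities of 3822, 4939 and 5078 in 10A/143B replicates 1, 2 and 3, against 5673, 5078 and 5221 in 468/143B. The value of 10A/143B replicate 3 equals that of 468/143B replicate 2, so the lines overlapped in a tie. The log2 level was 12.17 ± 0.23 in 10A/143B and 12.38 ± 0.08 in 468/143B (SD, n = 3 each), with a difference of -0.22 ± 0.11 (SE). The difference was -0.57 between the arrays numbered 1 and -0.04 between those numbered 2 and between those numbered 3. It was -0.04 ± 0.03 (SE) with replicate 1 left out of both lines, so the size of the MIF difference came from the arrays numbered 1.

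ACKR3, the atypical receptor of CXCL12, was brighter in 10A/143B on 1 of 3 probe sets. Probe set 212977_at had intensities of 77.7, 108 and 86.8 in 10A/143B replicates 1, 2 and 3, against 47.2, 46.9 and 45.6 in 468/143B. The lines did not overlap, and the 468/143B arrays lay within a narrow range. The log2 level was 6.73 ± 0.20 in 10A/143B and 5.97 ± 0.02 in 468/143B (SD, n = 3 each), a difference of 0.76 ± 0.17 (SE), opposite in sign to that of CXCR4. Probe set 1559114_a_at had 12.0, 13.3 and 12.7 in 10A/143B, against 22.3, 5.94 and 8.34 in 468/143B. Probe set 232746_at had 10.4, 11.004 and 12.6 in 10A/143B, against 8.40, 5.31 and 17.5 in 468/143B. On both of these dimmer probe sets the lines overlapped, and the differences were 0.07 ± 0.22 and 0.08 ± 0.19 (SE).

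CD74, the invariant chain and MIF receptor, was dim in both lines. Probe set 1567627_at had intensities of 16.4, 36.5 and 33.1 in 10A/143B replicates 1, 2 and 3, against 13.6, 18.5 and 26.0 in 468/143B, with a difference of 0.32 ± 0.24 (SE). Probe set 209619_at had 18.9, 10.2 and 6.96 in 10A/143B, against 8.75, 6.19 and 22.3 in 468/143B, with a difference of -0.0012 ± 0.25 (SE). Probe set 1567628_at, listed with the same accession as 1567627_at, had 9.32, 8.34 and 4.50 in 10A/143B, against 1.16, 3.27 and 8 in 468/143B, with a difference of 0.22 ± 0.16 (SE). The lines overlapped on all 3 probe sets.

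Across the members, 3 probe sets (all of CXCR4) were lower in 10A/143B on every array and 2 (ACKR3 212977_at and CXCL12 203666_at) were higher on every array, so 5 of 12 did not overlap, against 42.8% of all 41091 probe sets (31% of which passed limma's threshold). With the brightest probe set of each gene, 3 of 5 genes did not overlap, against 45.8% of all genes (24.2% higher and 21.6% lower). A difference at least as large as that of ACKR3 was found in 17.7% of genes, of CXCL12 in 17.9%, of CD74 in 47.3% and of MIF in 60.3%. Since the contrast served to choose the members, nothing is read from these shares. Only 4 of the 12 probe sets stood at or above the offset of 16 on every array. These were 217028_at and 211919_s_at of CXCR4, 212977_at of ACKR3 and the probe set of MIF. Without detection calls, dim values cannot be told from background.

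**Figure D2:**
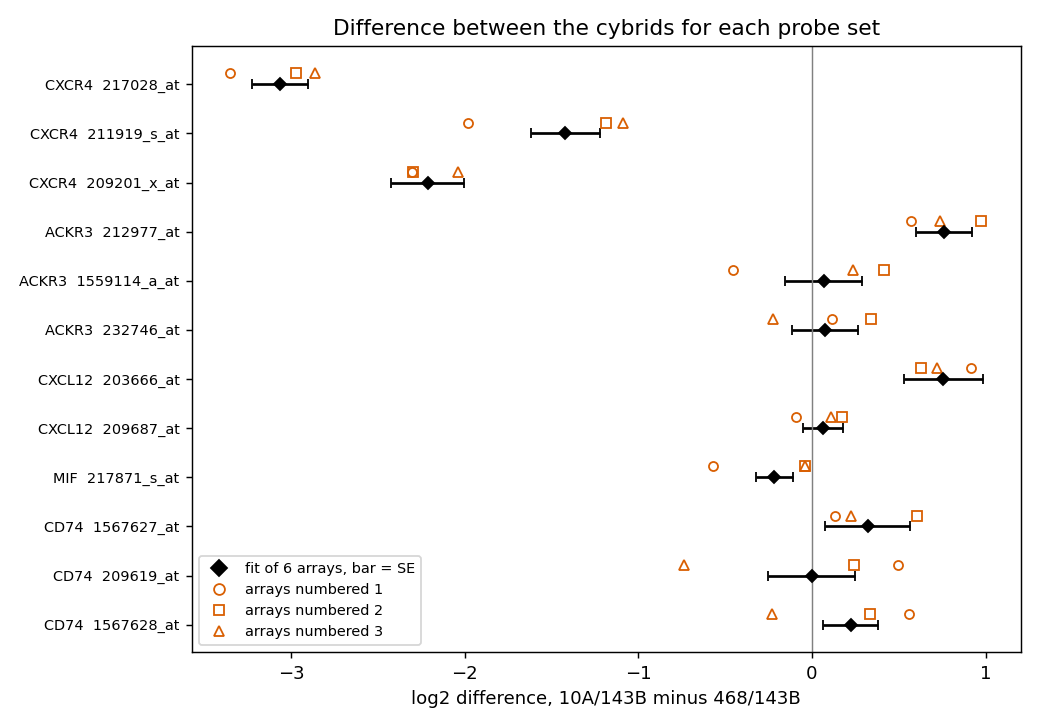
Log2 difference, 10A/143B minus 468/143B, of each of the 12 probe sets: diamonds with bars are the fit of 6 arrays with its SE, and open orange symbols are the differences between arrays of the same replicate number. All symbols of the 3 CXCR4 probe sets lie below 0, those of ACKR3 212977_at and CXCL12 203666_at lie above 0, and the MIF value for the arrays numbered 1 is -0.57 beside -0.04 for the others.

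The genes whose array profile was nearest that of CXCR4 were found by the root mean square difference of log2 levels over the 6 arrays, after each gene's own mean was subtracted. They were CRIP1 (0.115), PLK2 (0.140), RNA45SN5 (0.205), STARD13 (0.287) and PPP1R15A (0.288). CRIP1, a LIM-domain gene, had intensities of 13.5, 18.001 and 21.3 in 10A/143B replicates 1, 2 and 3, against 251, 232 and 231 in 468/143B. PLK2, a polo-like kinase, had 45.6, 83.9 and 91.8 in 10A/143B, against 588, 648 and 709 in 468/143B. As with CXCR4 217028_at, replicate 1 was the lowest 10A/143B array and replicate 3 the highest. These genes were picked for closeness to that profile on the same arrays, so nothing is read from the shared order. PPP1R15A, a regulator of the integrated stress response, had 260, 304 and 302 in 10A/143B, against 1541, 1911 and 1951 in 468/143B. RNA45SN5 is a many-copy ribosomal RNA precursor, and another probe set of STARD13 went the opposite way (1.79 ± 0.14, SE, adjusted p = 3.71e-05), so the place of STARD13 beside CXCR4 depends on the probe set. Pearson's r with CXCR4 over 6 arrays was 0.986 to 0.998 for the 5 genes, a description that rests mostly on the step between 2 lines. For ACKR3 the nearest were ZNF266 (0.0575), URB1 (0.0614), SEC23A (0.0647), ACOX3 (0.0663) and CWF19L2 (0.0694). SEC23A, a coat protein of vesicles leaving the endoplasmic reticulum, had 1361, 1629 and 1520 in 10A/143B, against 891, 879 and 929 in 468/143B.

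**Figure D3:**
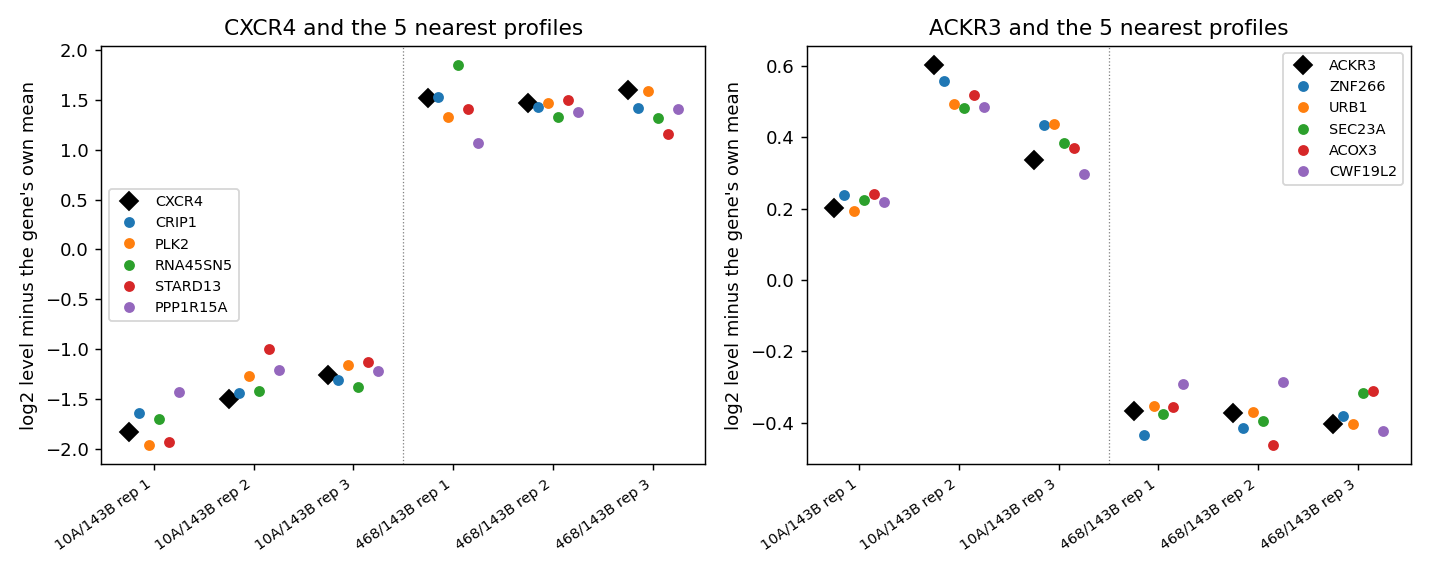
Log2 level minus the gene's own mean on each of the 6 arrays, for CXCR4 (left) and ACKR3 (right, black diamonds) with the 5 genes of nearest profile (coloured points). CXCR4 and its neighbours are low on all 10A/143B arrays and high on all 468/143B arrays, and ACKR3 and its neighbours are the other way round.

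Other genes around these receptors were taken from 11 lists by role, which hold 230 measured genes besides the members. Of these, 48 were higher and 37 lower in 10A/143B (limma, adjusted p under 0.05), which is 37.0% called, against 35.6% of all 19775 genes (19.9% higher and 15.7% lower). The median difference was 0.0086 for the lists and -0.02 for all genes. With replicates 2 and 3 averaged, 34 were higher and 27 lower, against 22.7% called among all genes (13.8% higher and 8.9% lower). Scaling moved the balance of directions: median centring of each array gave 40 higher and 51 lower, and quantile normalization gave 43 higher and 48 lower. All genes moved alike, with 3374 higher and 3966 lower after centring and 3396 and 4032 after quantile normalization. Without _x_at and _s_at probe sets the lists had 46 higher and 23 lower, against 3374 and 2120 among all genes. The lists as a whole thus stood close to the background.

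The other chemokine receptors did not pass. Of 21 measured, 0 were higher and 0 lower with limma, against 35.6% called among all genes, 1 had an unadjusted p under 0.05, and the fit with replicates 2 and 3 averaged called 0. Most were dim: 5 of the 21 passed the level filter. The median was 0.03 and the differences ran from -0.52 to 0.27. CCR10, the receptor of skin chemokines, had the smallest p, with 10.9, 20.8 and 15.8 in 10A/143B, against 24.8, 26.0 and 38.6 in 468/143B (-0.52 ± 0.21, SE, adjusted p = 0.0843, but 0.0329 after median centring and 0.0353 after quantile normalization). CXCR3, the receptor of interferon-induced chemokines, differed by -0.34 ± 0.18 (SE, adjusted p = 0.189). CXCR2, a further receptor of MIF, had mean intensities of 8.53 in 10A/143B and 5.37 in 468/143B (adjusted p = 0.840).

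Of 38 other chemokine ligands, 5 were higher and 0 lower, 13.2% called against 35.6% of all genes, with a median of 0.02. After median centring, and without 10A/143B replicate 1, 4 were higher and 2 lower. Most of the list was dim: 6 of 38 passed the level filter, and 4 of those 6 were higher, against 7257 called of the 13079 genes that passed it. CXCL2, CXCL1 and CXCL3 passed it through 10A/143B alone, with log2 levels of 4.37, 4.69 and 4.66 in 468/143B. Nothing is therefore read from the count among the 6. The 4 with the largest change were CXCL8, CXCL2, CXCL1 and CXCL3, ligands of CXCR2. Other ligands of that receptor did not pass, among them CXCL5 (0.03), CXCL6 (0.07) and PPBP (0.20). CXCL8 had 653, 549 and 541 in 10A/143B, against 56.1, 64.4 and 49.9 in 468/143B. CXCL2 had 88.0, 93.7 and 91.1 in 10A/143B, against 1.77, 4.63 and 8.17 in 468/143B, a difference of 2.37 ± 0.19 (SE, adjusted p = 2.69e-05). Its other probe sets, at mean intensities under 8 in both lines, gave 0.03 and -0.34 and did not pass. CXCL1 differed by 2.14 ± 0.27 (SE, adjusted p = 3.57e-04) and CXCL3 by 1.12 ± 0.26 (SE, adjusted p = 0.00913). CXCL8 differed by 3.04 ± 0.12 (SE, adjusted p = 2.52e-06). The arrays of the lines did not overlap for any of these 4 genes. CXCL11, the other chemokine that ACKR3 binds, was dim, with means of 5.80 in 10A/143B and 8.67 in 468/143B (adjusted p = 0.396).

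Among the further ligands of ACKR3 and the adrenomedullin system, 0 of 12 were higher and 2 lower (16.7% called, against 35.6% of all genes, median -0.07). ADM encodes adrenomedullin, a vasoactive peptide that ACKR3 also binds and that low oxygen induces. It had 505, 461 and 474 in 10A/143B, against 3019, 2937 and 2876 in 468/143B, a 5.97-fold difference on the offset scale (-2.58 ± 0.06, SE, adjusted p = 3.52e-07). ADM2, a related peptide, was at 3.76, 3.05 and 5.82 in 10A/143B, against 18.3, 11.2 and 19.0 in 468/143B (-0.66 ± 0.16, SE, adjusted p = 0.0101, but 0.0519 without 10A/143B replicate 2). ADM and CXCR4 were thus lower in 10A/143B, and ACKR3 212977_at higher.

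**Figure D4:**
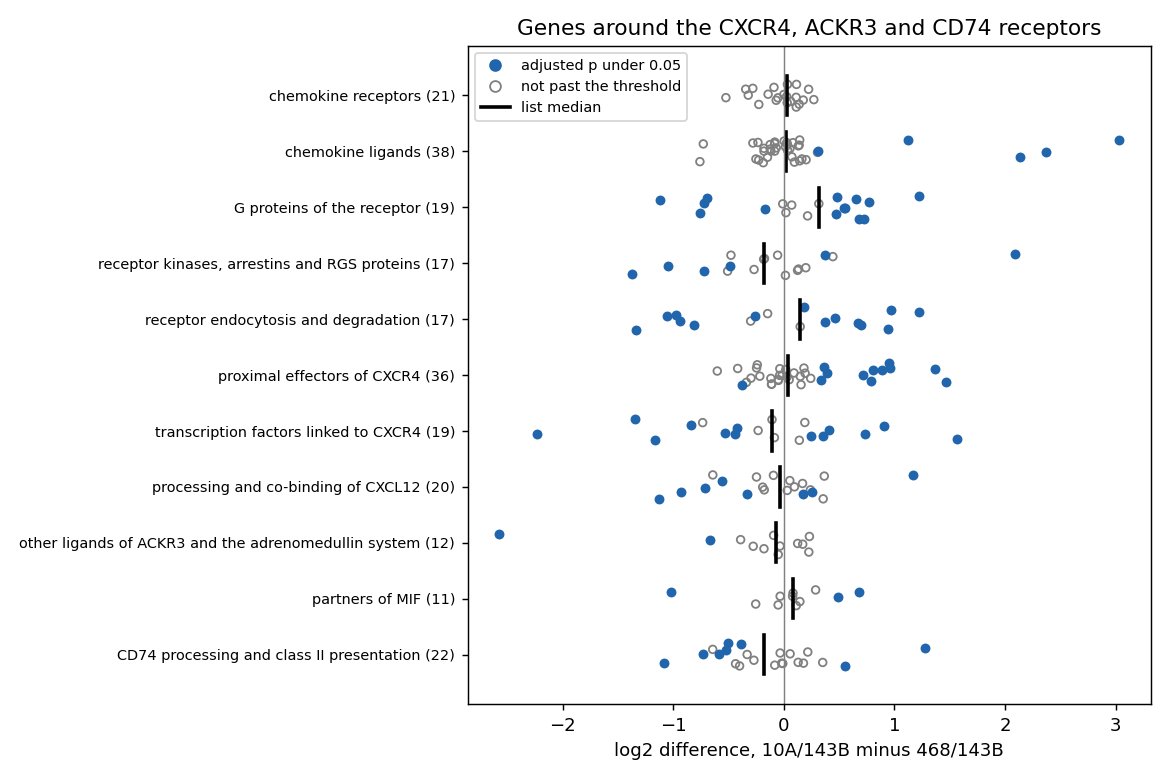
Log2 difference, 10A/143B minus 468/143B, of each measured gene in the 11 role lists (number measured in brackets), with filled points for genes past an adjusted p of 0.05 and a black bar for the list median. None of the 21 other chemokine receptors is filled, CXCL8 is the rightmost point at 3.04, and ADM is the leftmost at -2.58.

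Subunits of the G proteins that receptors such as CXCR4 use went both ways. Of 19, 9 were higher and 5 lower (73.7% called, against 35.6% of all genes, median 0.32). With the mean of each gene's probe sets the median was -0.14. There 5 were higher and 6 lower, against 3425 and 2721 of all 19775 genes. The level filter kept all 19, with 9 higher and 5 lower, against 7257 called of the 13079 genes it kept. The inhibitory alpha subunits, through which CXCR4 signals, went both ways: GNAI1 (0.56, adjusted p = 0.00605) and GNAI3 (0.72, adjusted p = 4.33e-04) were higher. GNAI2 was lower, with 131, 171 and 182 in 10A/143B, against 252.5, 286 and 311 in 468/143B (-0.76 ± 0.14, SE, adjusted p = 0.00242). The beta subunits GNB2 (-1.12 ± 0.07) and GNB4 (1.22 ± 0.06) moved in opposite directions (SE, adjusted p = 1.16e-05 and 4.64e-06). GNAQ, the alpha subunit that activates phospholipase C, was 1.71-fold higher (adjusted p = 1.98e-04).

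Receptor kinases, arrestins and RGS proteins desensitise such receptors or speed the G protein's switch back to its resting form. Of 17, 2 were higher and 4 lower (35.3% called, against 35.6% of all genes, median -0.18), and quantile normalization gave 2 and 8. GRK3, a kinase that marks activated receptors, CXCR4 among them, for arrestin, had 236, 236 and 252.5 in 10A/143B, against 42.8, 57.7 and 35.02 in 468/143B (2.09 ± 0.16, SE, adjusted p = 2.32e-05). Its other probe sets gave 0.55 and 0.30 and did not pass. GRK2 had means of 163 in 10A/143B and 168 in 468/143B (adjusted p = 0.822). RGS3 had 99.7, 99.0 and 114 in 10A/143B, against 313, 292 and 278 in 468/143B (-1.37 ± 0.11, SE, adjusted p = 2.32e-05). RGS16, a known brake on CXCR4 signalling in blood cells, differed by -1.05 ± 0.14 (SE, adjusted p = 5.45e-04), and by -0.95 and 0.04 on its other probe sets. RGS5 was lower on its brightest probe set (-0.73 ± 0.16, SE, adjusted p = 0.00792, but 0.108 averaged) and higher on 2 others, so it has no settled direction.

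The list of receptor endocytosis and degradation held 17 genes, of which 8 were higher and 6 lower (82.4% called, against 35.6% of all genes, median 0.15). The level filter kept all 17, with 8 higher and 7 lower, against 7257 called of the 13079 genes it kept. The mean of each gene's probe sets gave 8 higher and 2 lower, against 3425 and 2721 of all 19775 genes. Leaving out _x_at and _s_at probe sets gave 10 higher and 2 lower of 15, against 3374 and 2120 of 17098 genes. USP8, a deubiquitinase of endosomes, was 1.22 ± 0.09 higher (SE, adjusted p = 1.89e-05). The clathrin adaptor subunit AP2B1 was 1.34 lower (SE 0.16, adjusted p = 2.06e-04), with 0.16 ± 0.48 on its other probe set. HGS, which sorts ubiquitinated receptors toward the lysosome, differed by -0.98 ± 0.10 (SE, adjusted p = 9.57e-05), with 0.19 on its other, dim probe set. The ubiquitin ligase NEDD4L was lower on the probe set used (-1.06 ± 0.07) and higher on 2 others (1.54 and 2.04), so it has no settled direction.

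Of 36 proximal effectors of CXCR4, 11 were higher and 1 lower (33.3% called, against 35.6% of all genes, median 0.04). The counts were 7 and 0 when replicates 2 and 3 were averaged and 7 and 1 without 10A/143B replicate 3. After median centring 10 were higher and 6 lower. PTPN11, a phosphatase that CXCR4 recruits, was 2.77-fold higher, with 1783, 1675 and 1652 in 10A/143B, against 657, 576 and 584 in 468/143B (adjusted p = 3.39e-06). PIK3CG, the PI3-kinase that G protein beta-gamma subunits activate, differed by 1.37 ± 0.20 (SE, adjusted p = 8.45e-04). DOCK1, an activator of RAC1, gave opposite directions: its brightest probe set was higher (0.96 ± 0.12, SE, adjusted p = 3.29e-04) and 2 others were lower (-0.85 and -0.70).

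Among 19 transcription factors linked to CXCR4, 6 were higher and 7 lower (68.4% called, against 35.6% of all genes, median -0.11). Without _x_at and _s_at probe sets 4 were higher and 4 lower of 14, against 3374 and 2120 of 17098 genes. The level filter kept 18 of the factors, with 6 higher and 7 lower, against 7257 called of the 13079 genes it kept. MYC had 109, 122 and 119 in 10A/143B, against 653, 568 and 596 in 468/143B (-2.23 ± 0.09, SE, adjusted p = 2.52e-06). TWIST1, a mesenchymal regulator, differed by -1.35 ± 0.16 (SE, adjusted p = 2.72e-04). KLF2 was higher by 1.57 ± 0.13 (SE, adjusted p = 3.38e-05), with 0.19 ± 0.37 on its other, dim probe set. The HIF alpha subunits moved in opposite directions. EPAS1 had 714, 516 and 519 in 10A/143B, against 1278, 1351 and 1296 in 468/143B (-1.16 ± 0.12, SE, adjusted p = 9.99e-05). HIF1A had means of 2921 in 10A/143B and 2195 in 468/143B (0.41 ± 0.06, SE, adjusted p = 0.0012). RELA, of NF-kB, was 1.79-fold lower (adjusted p = 5.09e-04). NRF1, whose core letters stand in the CXCR4 window shown above, had means of 90.0 in 10A/143B and 137 in 468/143B (-0.53 ± 0.13, SE, adjusted p = 0.0122, but 0.102 averaged and 0.393 with the mean of its probe sets). Its other probe sets gave 0.19, -0.18, -0.27 and 0.0045 and did not pass, so the lower NRF1 level rests on the probe set used.

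Genes that process or present CXCL12 included 3 higher and 5 lower of 20 (40% called, against 35.6% of all genes, median -0.03). The number higher was 1 with replicates 2 and 3 averaged and with any array but 10A/143B replicate 1 left out, and it was 5, beside 7 lower, without that array. They contain enzymes of heparan sulfate, the sugar chain that holds CXCL12 near cells. EXT2, which builds the chain with EXT1, was 0.93 lower (SE 0.16, adjusted p = 0.00169), with 0.05 on its other probe set. EXT1 was lower on the probe set used (-1.13 ± 0.09) and higher on 2 others (0.72 and 1.304). NDST1, which modifies the chain, had 1.17 ± 0.10 on its brightest probe set, -0.96 ± 0.11 on another, and -0.68 on its other probe set, which did not pass. SDC1, a proteoglycan that carries such chains, was lower on both of its probe sets (-0.72 ± 0.07 and -0.47 ± 0.10, SE, adjusted p = 1.01e-04 and 0.00636).

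Of 11 partners of MIF, 2 were higher and 1 lower (27.3% called, against 35.6% of all genes, median 0.08). With the mean of probe sets 0 were higher and 2 lower, against 3425 and 2721 of all 19775 genes. CD44, the co-receptor through which CD74 passes on the MIF signal, has 13 probe sets that disagreed. The brightest, 212063_at, had 2856, 3019 and 3040 in 10A/143B, against 2062, 2195 and 2077 in 468/143B (0.49 ± 0.06, SE, adjusted p = 1.76e-04). Over all probe sets 2 were higher and 6 lower past the threshold. The lower ones included 204489_s_at, with means of 1549 in 10A/143B and 2487 in 468/143B (-0.68 ± 0.05, SE), and 210916_s_at (-1.18 ± 0.12, SE). COPS5, an intracellular partner of MIF, had means of 1407 in 10A/143B and 1267 in 468/143B (adjusted p = 0.200). BNIPL, a BCL2-interacting protein, was dim and lower (-1.02 ± 0.20, SE, adjusted p = 0.00419). THRB, the thyroid hormone receptor beta, differed by 0.68 ± 0.17 (SE, adjusted p = 0.0154), a call lost when replicates 2 and 3 were averaged (0.182) and without 10A/143B replicate 2 (0.0736), 10A/143B replicate 3 (0.0823) or 468/143B replicate 3 (0.0602). Its other probe sets gave 0.79 ± 0.22 (SE), which passed, and -0.75 ± 0.26 (SE), which did not, so the direction depends on the probe set.

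Of 22 genes of CD74 processing and class II presentation, 2 were higher and 6 lower (36.4% called, against 35.6% of all genes, median -0.18). The number lower was 3 with replicates 2 and 3 averaged, and 4 without 10A/143B replicate 2 or 3 or 468/143B replicate 3. SPPL2A, the protease that cuts CD74 within the membrane, had 635, 357 and 342.5 in 10A/143B, against 164, 181 and 156.5 in 468/143B (1.28 ± 0.21, SE, adjusted p = 0.00144), and its other probe sets were higher too (0.62 and 0.90). CTSB, a lysosomal protease, was 1.66-fold lower (adjusted p = 1.72e-05) and lower on its 4 other probe sets. LGMN, which makes early cuts in CD74, was lower too (-0.58 ± 0.07, SE, adjusted p = 2e-04). HLA-DMB, which loads peptides after CD74 has left, had 66.3, 23.9 and 23.1 in 10A/143B, against 83.3, 89.9 and 101 in 468/143B (-1.09 ± 0.29, SE, adjusted p = 0.0185, but 0.151 averaged). That call was also lost without replicate 2 (0.0734) or 3 (0.0698) of 10A/143B and without replicate 2 (0.0613) or 3 (0.0743) of 468/143B. HLA-DRA, the class II alpha chain, had means of 7.44 in 10A/143B and 7.86 in 468/143B (adjusted p = 0.952).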

How the data were processed

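The authors deposited linear intensities for 54675 probe sets on each of 6 Affymetrix HG-U133 Plus 2.0 arrays. Per the labels' protocols, RNA was extracted in triplicate, 5 µg went into cDNA synthesis and the label was biotin. The sources used here name no summary algorithm, background correction or scaling. Values were used as deposited, as log2(intensity + 16). The number of arrays limits the precision.

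The platform's probe table supplied gene names: 41097 probe sets had 1 symbol and 1801 several. Of 41091 used, 41037 were matched by gene identifier to RefSeq genes of GRCh38.p14 and took the RefSeq symbol, whether or not it differed. A gene's level is that of its brightest probe set by mean log2 level. For members, every probe set was also fitted, in 1 fit over all 41091. The lines were compared in limma 3.58.1 under R 4.3.3 (eBayes with an intensity trend, Benjamini-Hochberg over all 19775 genes, threshold 0.05). Differences are 10A/143B minus 468/143B. The script was tested on simulated data.

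Group and replicate number of each array are those of its source name. The sample titles name only the donor lines and number the arrays of each line in another order. A replicate number here is therefore that of the source name and not of the title. Deviations from the group mean correlated between same-numbered arrays at 0.295, 0.182 and 0.123. Replicates 2 and 3 also correlated across numbers (0.153 and 0.161). Replicate 1 of each line correlated negatively with replicates 2 and 3 of the other (-0.263 to -0.167). Deviations cancel within a line, so these values are not independent. The arrays numbered 1 thus shared a deviation that set them apart, and the data do not settle how replicates 2 and 3 pair. The main fit used no pairing, and a replicate block by number was used only as an alternative.

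The members and lists were chosen with earlier results of these data known. Named genes were up to 4 per list with the largest change past the threshold, or the 2 with the smallest p, the 5 nearest profiles to CXCR4 and to ACKR3, and EPCAM, CDH1, KRT5, VIM, RUNX2, PTPRC and PECAM1. GRK2, CXCR2, CXCL11, COPS5, HLA-DRA, NRF1, HIF1A and RELA were added for their role after values were seen. Alternatives were other offsets, scalings, filters, probe set rules, replicate handling and each array left out. Replicates 2 and 3 alone were added after seeing the data.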

Additional observations from a re-analysis of the deposited data

How the results depend on the processing

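All 5 members kept the sign of their difference under each of the alternatives that gave a value. MIF gave none without _x_at and _s_at probe sets. The size of 4 members followed the offset and the probe sets. With an offset of 1 the log2 difference was -3.62 for CXCR4, 0.94 for ACKR3 and 1.19 for CXCL12, and with an offset of 64 it was -2.17, 0.48 and 0.36. With the mean of each gene's probe sets it was -2.23, 0.30 and 0.41. For CD74 the same settings gave 0.51, 0.15 and 0.18. Quantile normalization gave 0.55 for ACKR3. Replicates 2 and 3 alone gave -0.040 for MIF. With each array left out in turn, the difference ran from -3.20 to -2.91 for CXCR4, 0.65 to 0.85 for ACKR3, 0.57 to 0.86 for CXCL12, -0.29 to -0.086 for MIF (the last without 10A/143B replicate 1) and 0.19 to 0.54 for CD74. Calls over all genes fell to 4483 with replicates 2 and 3 averaged, against 7042 in 6 arrays, and ran from 5641 to 8061 with an array left out. Calls in the role lists, 85 on 6 arrays, ran from 72 to 94 with an array left out, and were 61 with replicates 2 and 3 averaged. They numbered 69 once _x_at and _s_at probe sets were dropped, and 59 higher plus 51 lower on replicates 2 and 3 alone.

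The replicate block gave 94 calls in the role lists and changed no call of a named gene. Signs turned for some named genes that are not members. With the mean of probe sets, RGS5 had 0.35, NEDD4L 0.36, DOCK1 -0.094, NDST1 -0.16, EXT1 0.30 and CD44 -0.31. Without _x_at and _s_at probe sets, CXCL2 had -0.34, RGS16 0.045, NEDD4L 1.54, HGS 0.19, FN1 0.080, URB1 -0.60 and NRF1 0.19. Those settings use other probe sets of the gene. The mean of probe sets also ended 9 calls with no change of sign, among them AP2B1 (adjusted p = 0.204), HGS (0.0572), EXT2 (0.22), THRB (0.184), NRF1 (0.393) and URB1 (0.11). Calls of RUNX2 (adjusted p = 0.0271 on 6 arrays) and PECAM1 (adjusted p = 0.0356) were lost with replicates 2 and 3 averaged (0.215 and 0.185).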
